A study of Mus musculus with 34 samples.

Results

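The comparison described here is fenofibrate against vehicle in mice that lack Ppara in the liver (LKO). It rests on 9 of the 34 liver arrays of the series, 4 from vehicle mice and 5 from treated mice, each array holding the RNA of 1 mouse, and on the 16089 genes that could be measured. All mice were C57Bl/6J males 14 weeks old, gavaged daily for 10 days with fenofibrate at 100 mg per kg per day or with gum arabic at 3% in water, and killed at zeitgeber time 14. The reference groups were the control line of the liver knockout with intact Ppara (LWT, 4 vehicle and 5 treated), the whole-body Ppara knockout (KO, 3 and 5) and wild-type mice (WT, 4 and 4). The labels name the knockout as liver-specific without giving the promoter that drives the recombinase or the part of the gene that is removed.

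Fenofibrate is a fibrate whose active acid is a ligand of PPARA, a nuclear receptor that pairs with RXR and switches on genes of fatty acid uptake, oxidation in mitochondria and peroxisomes, and ketone body production. Cyp4a genes, which encode omega-hydroxylases of fatty acids, are among its textbook targets in rodent liver. Other nuclear receptors, CAR and PXR, switch on Cyp2b, Cyp2c and Cyp3a genes when foreign compounds reach the liver. In the liver knockout the receptor is removed from the liver cells in which the recombinase acts and can remain elsewhere in the body.

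Each level is a log2 intensity from which the array's 75th percentile was subtracted, so a level of 0 is that percentile and a difference of 1 is a doubling. Levels of different genes come from different probes and are not compared. Changes are treated minus vehicle on the log2 scale ± SE from limma, and a gene is called when its p, adjusted by Benjamini-Hochberg over all 16089 genes, is under 0.05. Between 51.6% and 58.7% of the 55681 probes were well above background on the LKO arrays, and replicate arrays of an LKO group correlated across probes at 0.989 to 0.994. The labelled tissue was borne out by its markers, since all 12 hepatocyte genes of the list were measured with a summed level of 13.62 to 13.84 in vehicle and 13.44 to 13.76 in treated LKO mice. The summed level of 12 endothelial markers ran from 7.33 to 7.48 in vehicle and from 7.42 to 7.69 in treated mice, and that of 12 Kupffer cell markers from 7.27 to 7.52 and from 7.01 to 7.68. Treated LKO mouse 5 stood near the vehicle mice for several of the genes that were lower with the drug. Results with and without it are given for H2bc4, H2bc1, the clustered histone family, Moxd1 and Gdpd3. In whole liver, fewer cells of a type and less RNA per cell cannot be told apart.

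Ppara itself read 6.00, 6.21, 6.11 and 6.12 in the 4 vehicle LKO mice and 6.09, 6.11, 6.20, 5.87 and 5.84 in the 5 treated ones. The lowest LWT mouse was at 6.70, above all 9. The level in LKO was lower than in LWT by 0.91 ± 0.16 (SE) with vehicle (adjusted p = 0.000156) and by 0.99 ± 0.14 with fenofibrate (adjusted p = 1.29e-06). The 3 Ppara probes gave 53.1%, 47.3% and 55.0% of the LWT level in vehicle mice. No label says which part of Ppara was removed, so these probes may lie beyond it and do not test whether a functional message was lost. Within LKO, Ppara differed by -0.09 ± 0.15 with the drug, which is less than its error.

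No gene was called for fenofibrate in LKO, 0 of 16089 (0%), and the lowest adjusted p was 0.0633, that of the histone gene H2bc4. At an unadjusted p under 0.05, 543 genes (3.37%) were higher and 384 (2.39%) lower in treated mice, and without vehicle mouse 2 these counts were 324 and 248. The 5 treated mice all read above the 4 vehicle mice for 344 genes (2.14%) and all below for 179 (1.11%); such groups are called apart. Changes of 2-fold or more were fitted for 16 genes upward (0.0994%) and 53 downward (0.329%). The same drug in LWT gave 1600 genes called higher (9.94%) and 1257 called lower (7.81%). The count in LKO depended on the fit and on single arrays. It was 2 with quantile normalization, with normexp background correction followed by quantile normalization, and in the authors' value table, 14 with array weights, 4 without the 3 arrays of the slide that holds no LKO mouse, and 0 to 3 when 1 array was left out at a time.

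Whether the response of LKO differed from that of LWT was tested directly as a difference of drug effects. It was called for 1077 genes (6.69%), 604 (3.75%) with the signed change larger in LWT and 473 (2.94%) with it smaller. The corresponding difference between LKO and KO was called for 0 genes (0%) by limma, although 1507 (9.37%) passed an unadjusted p of 0.05, and the lowest adjusted p was 0.145. That count was 14 without replicate 4 of treated LKO, 7 without replicate 1 and 3 without replicate 2 of vehicle KO, 1 without replicate 1 of vehicle LKO and 23 without the arrays of slide 1. The KO response itself held 2 called genes (0.0124%).

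Of the 6 measured Cyp4a genes, Cyp4a14, Cyp4a10, Cyp4a31 and Cyp4a32 stood higher in every treated LKO mouse than in any vehicle LKO mouse, at levels below those of every LWT mouse. Cyp4a10, Cyp4a31 and Cyp4a32 are close neighbours on chromosome 4 with near-identical transcripts, so their values are uncertain as to which gene was read. The following 2 probes, for Cyp4a10 (mm9 chr4:115198463-115198522) and Cyp4a31 (chr4:115243923-115243982), are shown because they are the pair in which the likeness can be read. Capitals mark the 6 of 60 positions at which they differ.
Cyp4a10: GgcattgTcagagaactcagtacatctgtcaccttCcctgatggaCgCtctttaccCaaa
Cyp4a31: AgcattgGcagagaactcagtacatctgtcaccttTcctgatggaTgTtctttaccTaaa
The first of these probes is also listed in the array files against an accession of Cyp4a32. Their changes in LKO were 1.20 ± 0.53 and 0.50 ± 0.38, smaller than those of the brightest probes of both genes given below, and neither was called.

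Cyp4a14, an omega-hydroxylase gene read by a probe at chromosome 4, 115158914 to 115158973, was at -1.89, -0.47, -0.49 and 0.76 in vehicle LKO mice and at 3.10, 3.40, 4.09, 2.97 and 1.72 in treated ones. The lowest treated mouse was thus about 1 log2 unit above the highest vehicle mouse. The change was 3.58 ± 0.97, an 11.9-fold difference of means (unadjusted p = 0.000908, adjusted p = 0.471). On the 3 slides that carry both LKO groups the difference was 5.49, 2.20 and 2.63. The gene was called under 2 of 48 alternatives, with array weights (3.52, adjusted p = 0.0284) and without the arrays of slide 1 (3.58, adjusted p = 0.0284), and its adjusted p over the alternatives ran from 0.0284 to 0.9999. The second of these leaves the LKO values untouched and changes the spread estimated over the groups. Vehicle WT mice spread from 2.58 to 8.28, the lowest of them under 4 of the 5 treated LKO mice, and vehicle KO mice from -4.11 to 1.41.

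Cyp4a10 read 1.87, 1.90, 2.17 and 2.77 with vehicle and 3.41, 4.85, 3.94, 4.15 and 3.64 with fenofibrate in LKO, a change of 1.82 ± 0.63 (adjusted p = 0.700). Cyp4a31 differed by 1.79 ± 0.63 and Cyp4a32 by 1.51 ± 0.69, and in both the groups were again apart. The treated mouse numbered 2 was the highest for these 3 genes and the mouse numbered 3 the highest for Cyp4a14. Within slides Cyp4a10 differed by 1.80, 1.60 and 2.08.

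For comparison, the mean Cyp4a14 level in vehicle LWT mice was 8.17, 5.11 above that of treated LKO mice (3.06). Cyp4a10 averaged 9.02 in vehicle LWT mice, 5.02 above treated LKO mice (4.00). Treated LWT mice lay between 9.85 and 10.37 for Cyp4a14. The change in LWT was 1.89 for Cyp4a14 and 1.02 for Cyp4a10, and neither was called there. The LWT change minus the LKO change was -1.69 ± 1.37 for Cyp4a14 (adjusted p = 0.564) and -0.80 ± 0.89 for Cyp4a10 (adjusted p = 0.699), so no difference between the lines could be resolved. In KO mice the changes were 0.60 for Cyp4a14 and 0.84 for Cyp4a10, with overlapping groups, and the LKO change minus the KO change was 2.98 for Cyp4a14 (adjusted p = 0.524).

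**Figure D1:**
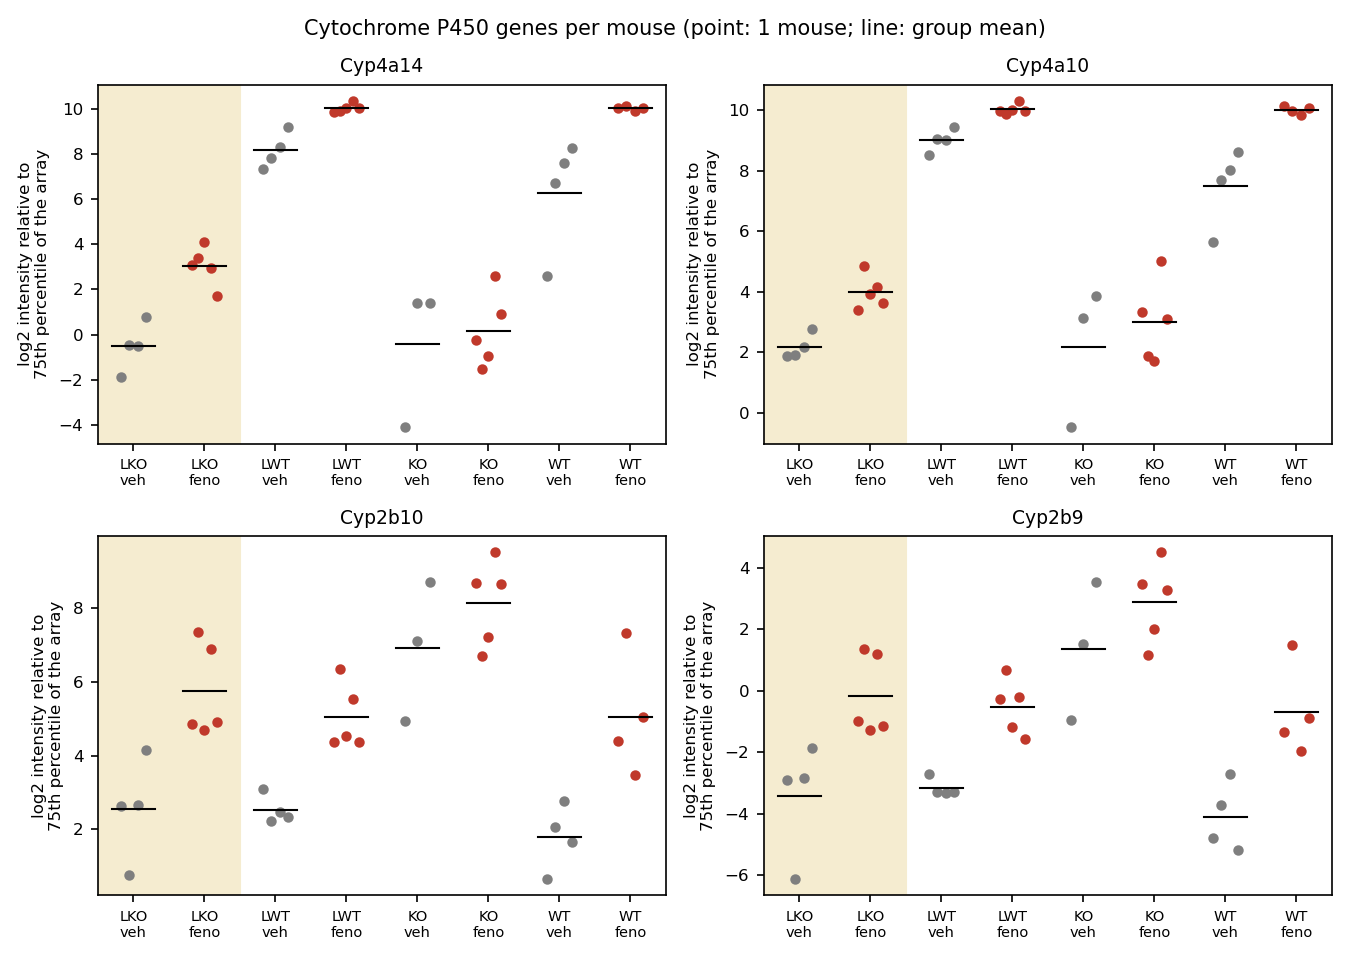
Log2 level of Cyp4a14, Cyp4a10, Cyp2b10 and Cyp2b9 in each mouse of the 8 groups (y axis, array's 75th percentile at 0), with vehicle mice in grey, treated mice in red, a line at the group mean and the LKO groups shaded. Treated LKO mice lie above vehicle LKO mice for all 4 genes, and for the Cyp4a genes both LKO groups lie far below LWT, where Cyp4a14 reaches 9.85 to 10.37 with the drug.

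The other 10 omega-oxidation genes differed little in LKO. Over the 14 genes of the list the median change was 0.14, against 0.02 over all genes tested. The separated Cyp4a changes were already known when the comparison was chosen, and Cyp4a10, Cyp4a31 and Cyp4a32 may not be independent readings. The counts that follow are therefore no evidence about the list beside all genes. At an unadjusted p under 0.05, 5 members were higher (background 3.37%) and 0 lower. Apart upward were 4 members (background 2.14%), the 4 Cyp4a genes above. The other higher member was Aldh3a2, a fatty aldehyde dehydrogenase, at 0.38 ± 0.14. It changed by 2.16 in LWT, and the difference of 1.77 ± 0.20 between the lines was called (adjusted p = 7.09e-07). Cyp4a12a and Cyp4a12b, the Cyp4a genes known for male-biased expression, differed by 0.14 ± 0.26 and 0.13 ± 0.26 in LKO and by 1.48 and 1.39 in LWT, where both were called. The difference between the lines was called for both (adjusted p = 0.0243 and 0.0337). Among the Cyp4f and Cyp4v genes, Cyp4f13, Cyp4f14, Cyp4f15, Cyp4f16, Cyp4f17, Cyp4f18 and Cyp4v3 differed by between -0.05 and 0.15 in LKO. In LWT, Cyp4f18 was called at 1.95 and Cyp4f14 at -1.04, and for both the difference from LKO was called (adjusted p = 3.7e-10 and 4.95e-05).

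Several genes of fatty acid use with large changes in LWT differed little between treated and vehicle LKO mice. Acot2, a mitochondrial acyl-CoA thioesterase, read from -2.68 to -2.10 in vehicle and from -2.77 to -2.10 in treated LKO mice, a change of 0.11 ± 0.36. Its LWT change was 4.72, and the difference was called (4.62 ± 0.51, adjusted p = 5.46e-07). Cd36, a fatty acid translocase, differed by -0.07 ± 0.17 in LKO and 3.87 in LWT. Pdk4, a kinase that restrains pyruvate oxidation, differed by 0.36 ± 0.47 in LKO and 3.74 in LWT.

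Ehhadh, the bifunctional enzyme of peroxisomal oxidation, was at 4.47, 4.01, 4.48 and 3.99 in vehicle LKO mice and at 4.80, 4.76, 4.60, 4.60 and 4.64 in treated ones. The groups were apart, but the change of 0.44 ± 0.29 was small beside 3.05 in LWT and was not called. Of 30 peroxisomal genes, 22 were called higher in LWT (background 9.94%), while the median change in LKO was 0.05. In LKO 2 were higher at an unadjusted p under 0.05 (background 3.37%), 0 lower and 3 apart upward (background 2.14%). The 2 were Acaa1b, a peroxisomal thiolase (0.69 ± 0.21, from a mean of 5.65 to 6.34), and Eci2, an enoyl-CoA isomerase (0.22 ± 0.09). The 23 mitochondrial genes had a median of 0.09, with 1 higher (Eci1, 0.28 ± 0.12) and 1 lower (Cpt1a, the carnitine transfer enzyme, -0.18 ± 0.08), beside 3.37% and 2.39% of all genes. In LWT 20 of them were called higher (background 9.94%). The difference between the lines was called, with the larger change in LWT, for 15 of the 30 and 14 of the 23 (background 3.75%).

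A few further PPARA targets were higher in treated LKO mice. Vnn3, a vanin of the pantetheinase family, read 3.29, 3.01, 3.39 and 3.37 with vehicle and 3.83, 3.96, 3.75, 3.61 and 3.63 with fenofibrate, so the groups were apart. Its change of 0.49 ± 0.10 had the smallest p of any higher gene (adjusted p = 0.111), and it was called with array weights (adjusted p = 0.0154). Retsat, retinol saturase, read 4.81, 4.37, 4.60 and 4.76 with vehicle and 5.53, 5.51, 5.61, 5.29 and 5.16 with fenofibrate, a change of 0.78 ± 0.21 (adjusted p = 0.471).

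For Vnn3 the LWT change was 0.67 and for Retsat 1.62, and the difference between the lines was not called for either (adjusted p = 0.548 and 0.0984). Mgll, monoacylglycerol lipase, differed by 0.25 ± 0.12. In the list of 21 other PPARA targets, 3 were higher at an unadjusted p under 0.05 (background 3.37%), 0 lower and 4 apart upward (background 2.14%). The list median was 0.20, and 15 were called higher in LWT (background 9.94%). Among 23 genes of lipid uptake and droplets the median was -0.07, and 2 were higher at an unadjusted p under 0.05 (background 3.37%), Vldlr (1.11 ± 0.41), the VLDL receptor, and Acsl5 (0.32 ± 0.15), an acyl-CoA synthetase. Vldlr read -3.42, -3.77, -1.87 and -2.30 with vehicle and -1.32, -0.56, -1.58, -2.35 and -2.84 with fenofibrate, with overlap between the groups. Its change came down to 0.70 in the authors' value table and to 0.50 with normexp. Plin2, a lipid droplet coat protein, differed by -0.31 ± 0.25 in LKO and 1.12 in LWT, a called difference (adjusted p = 0.0106), and its LKO change was -0.18 with slide as a fixed block.

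**Figure D2:**
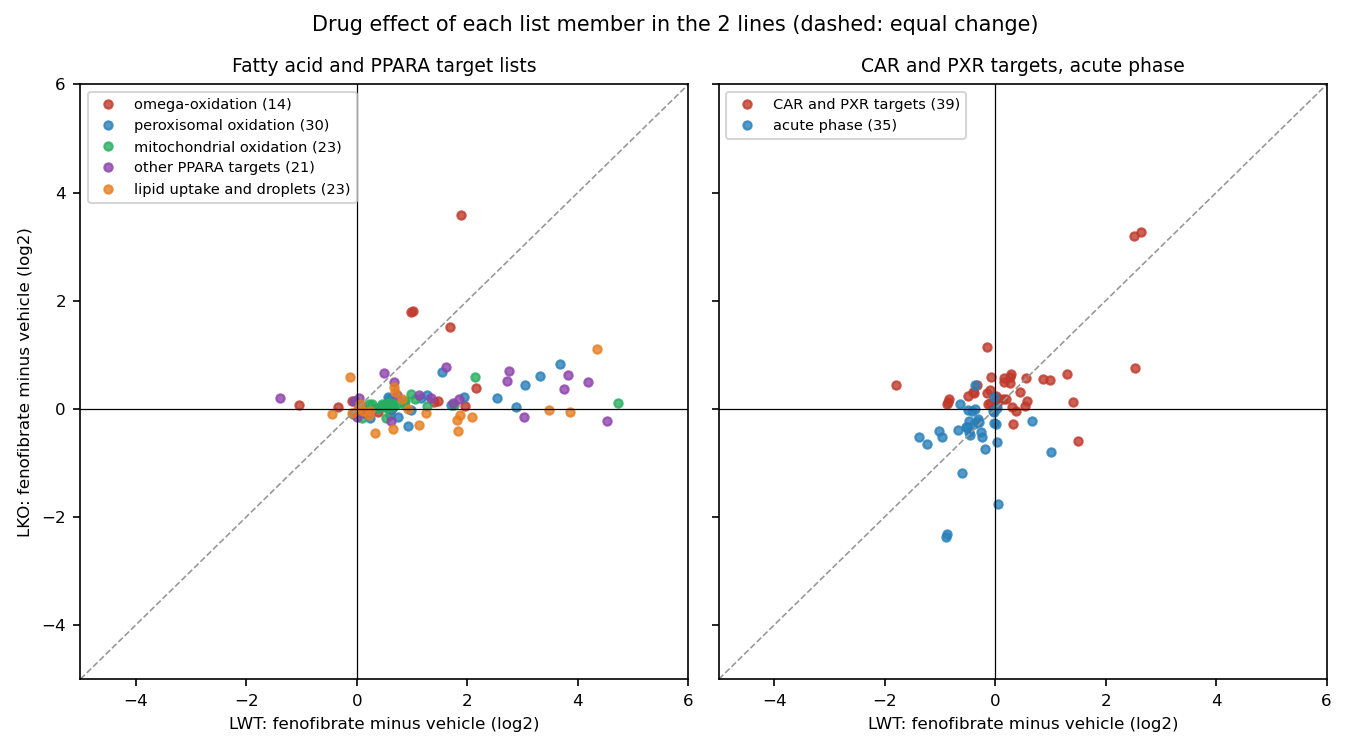
Fitted drug effect of each measured list member in LKO (y axis, log2) against that in LWT (x axis, log2), left for 5 fatty acid and PPARA target lists and right for CAR and PXR targets and acute phase genes, with the line of equal change dashed. Most points on the left lie along the horizontal line while extending to 4.72 in LWT, and Cyp4a14 stands at 3.58 in LKO and 1.89 in LWT.

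Genes called in the control lines were examined as a group. Of the 250 genes called higher in both LWT and WT by 2-fold or more, 130 (52.0%) had a positive change in LKO, against 56.3% of all genes tested, and their median LKO change was 0.02. Among them 13 were apart upward (background 2.14%) and 1 downward (background 1.11%). At an unadjusted p under 0.05, 14 were higher (background 3.37%) and 2 lower (background 2.39%). Of the 150 called lower in both lines by 2-fold or more, 43 (28.7%) were positive in LKO with a median of -0.08. Of these 150, 0 were apart upward (background 2.14%) and 3 downward (background 1.11%). In KO, 118 of these 150 (78.7%) were positive, with a median of 0.18. The genes were chosen on LWT and WT arrays, which the LKO and KO changes do not share, and no count of differences between LWT and LKO is given for them because it would use the same LWT arrays. The spread of each gene was, however, estimated over all 34 arrays. A small spread thus favours calls in LWT and WT as well as a small p in LKO.

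Outside the Cyp4a family, the largest positive changes were those of Cyp2b10, a classical target of CAR, and of Cyp2b9, another Cyp2b gene. Cyp2b10 read 2.62, 0.77, 2.66 and 4.16 in vehicle LKO mice and 4.85, 7.34, 4.71, 6.90 and 4.91 in treated ones. Treated mice 2 and 4 were more than 1 unit above the other treated mice, and the groups did not overlap. The change was 3.19 ± 0.78, or 9.13-fold (unadjusted p = 0.000334, adjusted p = 0.359), and it was called with array weights (3.40, adjusted p = 0.0421). Within slides it was 2.16, 3.19 and 3.19.

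Cyp2b9 read -2.90, -6.12, -2.83 and -1.88 with vehicle and -0.99, 1.37, -1.27, 1.19 and -1.13 with fenofibrate, with mice 2 and 4 again the highest. Its change was 3.27 ± 0.87 (adjusted p = 0.471), and 3 of 4 vehicle arrays were well above background. It came to 2.05 in the authors' value table and to 1.67 with normexp. Unlike Cyp4a14, Cyp4a10, Cyp4a31 and Cyp4a32, the genes Cyp2b10 and Cyp2b9 were at similar levels in LKO and LWT. Cyp2b10 averaged 2.55 in LKO and 2.52 in LWT with vehicle, and 5.74 and 5.04 with fenofibrate. In LWT Cyp2b10 and Cyp2b9 were both called (2.51, adjusted p = 0.0244, and 2.65, adjusted p = 0.0339). The difference of drug effects between LWT and LKO was -0.68 ± 1.11 for Cyp2b10 (adjusted p = 0.809) and -0.62 ± 1.24 for Cyp2b9 (adjusted p = 0.853), which is too wide to show that the lines respond alike. KO mice had Cyp2b10 at 6.92 with vehicle and 8.15 with fenofibrate, and the groups overlapped. Cyp2b13, the remaining Cyp2b gene among the CAR and PXR targets examined, differed by -0.59 ± 0.44 in LKO and by 1.499 in LWT. It was called in LWT (adjusted p = 0.01565), and for Cyp2b13 the difference between the lines was called (2.085, adjusted p = 0.0363).

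Of the 46 CAR and PXR targets in the list 39 were measured. At an unadjusted p under 0.05, 12 were higher (background 3.37%) and 0 lower, 9 were apart upward (background 2.14%), and 36 had a positive change, with a median of 0.30 against 0.02 over all genes. In LWT 10 were called higher (background 9.94%) and 4 lower (background 7.81%), with a median of 0.17. The difference between the lines was called for 2 in each direction, against 3.75% and 2.94% of all genes. In KO the median was 0.29, with 12 higher (background 6.41%) and 0 lower at an unadjusted p under 0.05 and 0 called. Leaving out 1 LKO mouse gave 9 to 13 higher in LKO. Abcc3, an efflux transporter of conjugates on the blood side of the hepatocyte, read 5.79, 5.66, 5.69 and 5.85 with vehicle and 6.31, 6.49, 6.32, 6.19 and 6.16 with fenofibrate. Its change of 0.54 ± 0.12 (adjusted p = 0.206) was accompanied by 0.87 in LWT, where it was called.

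Cyp2c55, a cytochrome P450, read -0.04, -0.60, 0.30 and 0.32 with vehicle and 1.27, 1.15, 1.43, 0.82 and 1.02 with fenofibrate in LKO. Its change was 1.14 ± 0.31 (adjusted p = 0.471) beside -0.16 in LWT, and the difference between the lines was not called (-1.30 ± 0.44, adjusted p = 0.0742). The following members, chosen after their values were seen, were the glutathione transferase Gstm3 and the carboxylesterase Ces2a, which differed by 0.51 ± 0.17 and 0.44 ± 0.14. For Ces2a the LWT change was -0.33 and the difference between the lines was called (-0.76 ± 0.20, adjusted p = 0.0142). Cyp3a11, the principal PXR target, differed by 0.58 ± 0.30 with overlapping groups.

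**Figure D3:**
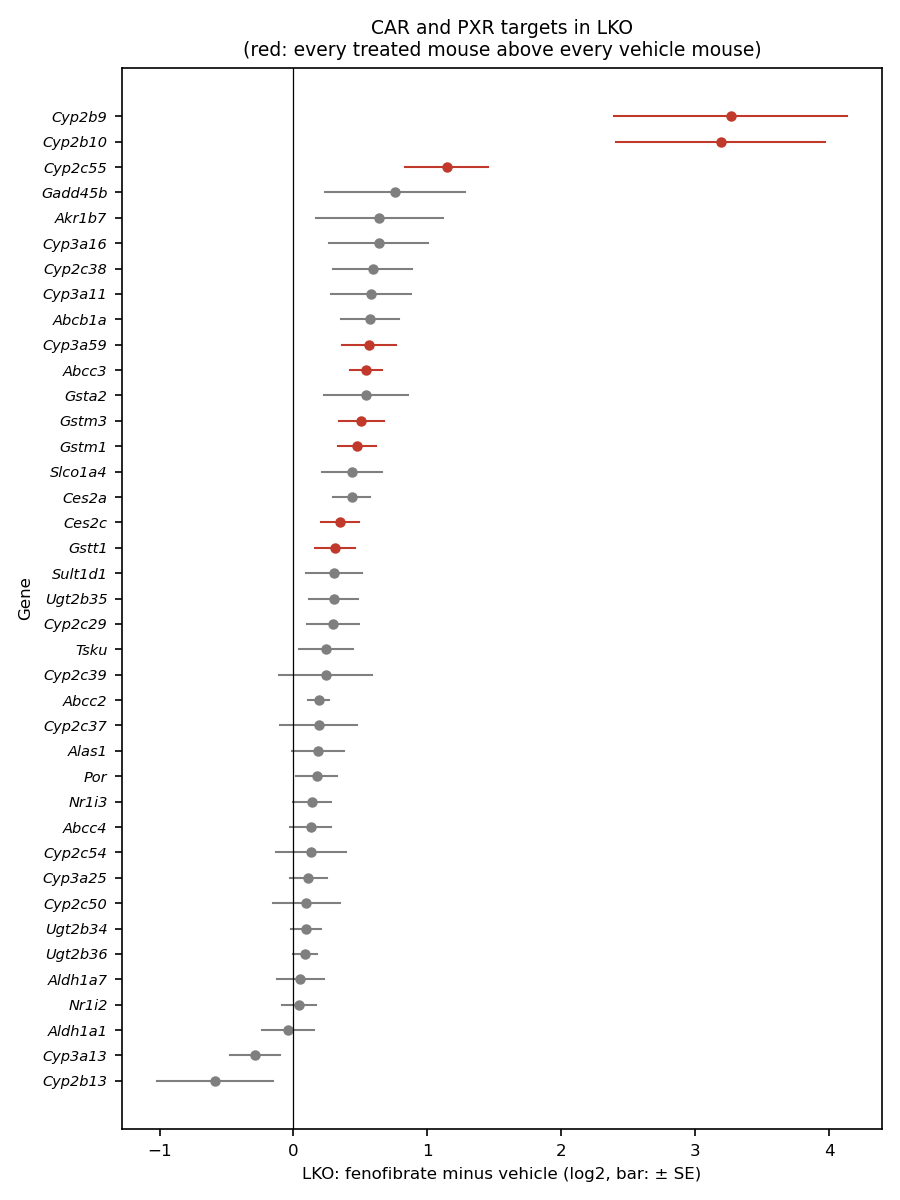
Fitted drug effect in LKO (x axis, log2, bars ± SE) for each of the 39 measured CAR and PXR targets (y axis), in order of size, with genes in red where every treated mouse was above every vehicle mouse. Cyp2b9 and Cyp2b10 stand apart at 3.27 and 3.19, and 36 of 39 points lie to the right of 0.

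The smallest p-values of the comparison belonged to histone genes that were lower with the drug. H2bc4, an H2B gene at chromosome 13, 23784254 to 23784313, read 6.68, 6.86, 6.51 and 6.55 in vehicle LKO mice and 5.94, 5.99, 6.16, 5.85 and 6.47 in treated ones. The groups were apart, by the narrow margin of treated mouse 5. The change was -0.57 ± 0.10 (unadjusted p = 3.94e-06, adjusted p = 0.0633), and within slides it was -0.64, -0.21 and -0.56, the smallest on the slide that holds treated mouse 5. It was called under 11 of 48 alternatives, among them quantile normalization (adjusted p = 0.0244), the authors' value table (adjusted p = 0.0123) and the fit without treated mouse 5 (-0.67, adjusted p = 0.000409), over a range of adjusted p from 0.000409 to 0.501.

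H2bc1, another H2B gene of the same cluster, read 5.00, 5.33, 5.20 and 5.21 with vehicle and 3.87, 3.80, 4.52, 3.68 and 4.96 with fenofibrate. Treated mouse 5 was again closest to the vehicle mice. The change was -1.02 ± 0.19 (adjusted p = 0.0960), called under 9 of 48 alternatives over a range of adjusted p from 0.000466 to 0.501, and -1.22 without mouse 5. The probe (mm9 chr13:24025811-24025870) is shown because it is the stretch of this gene that the value rests on, and clustered histone genes resemble each other. Whether this probe reads H2bc1 alone or also other H2B transcripts was not tested, so the value is uncertain as to the gene.
H2bc1: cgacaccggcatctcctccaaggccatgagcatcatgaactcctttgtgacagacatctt

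H1f2, which encodes a linker histone, read 4.97, 4.80, 4.47 and 5.06 with vehicle and 3.42, 3.34, 3.64, 3.84 and 3.92 with fenofibrate, a change of -1.20 ± 0.27 (adjusted p = 0.206). In LWT the changes of H2bc4, H2bc1 and H1f2 were 0.22, 0.31 and 0.70, none of them called. The difference between LWT and LKO was called for the 3 genes (0.79 ± 0.14, adjusted p = 0.000433; 1.33 ± 0.27, adjusted p = 0.00187; 1.90 ± 0.37, adjusted p = 0.00129). Vehicle LKO mice stood above vehicle LWT mice for H2bc4, where LWT ran from 6.15 to 6.47.

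The clustered histone genes were then taken as a family, chosen after these values were seen. Of 35 measured, 33 had a negative change in LKO and the median was -0.17, against 0.20 in LWT, -0.18 in KO and -0.01 in WT. At an unadjusted p under 0.05, 11 were lower (background 2.39%) and 0 higher, and 4 were apart downward (background 1.11%). The 4 were H3c15 and the genes that led to the choice of the family, H2bc4, H2bc1 and H1f2. The difference between LWT and LKO was called for 13 (background 6.69%). Those H2bc4, H2bc1 and H1f2 values are also within the 11 and the 13, so these counts are not independent of the choice. The mean level of the 35 genes was 2.00, 2.18, 1.95 and 1.98 in vehicle and 1.65, 1.82, 1.70, 1.72 and 1.93 in treated LKO mice, without overlap. Without treated mouse 5 the median was -0.19, with 32 of 35 negative and 13 lower at an unadjusted p under 0.05. That count was 5 without vehicle mouse 2, 6 without treated mouse 3, and 7 without vehicle mouse 1 or treated mouse 4. The median of the family stayed negative under every alternative tried over all arrays, from -0.19 with the replicate block to -0.14 with slide as a fixed block.

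**Figure D4:**
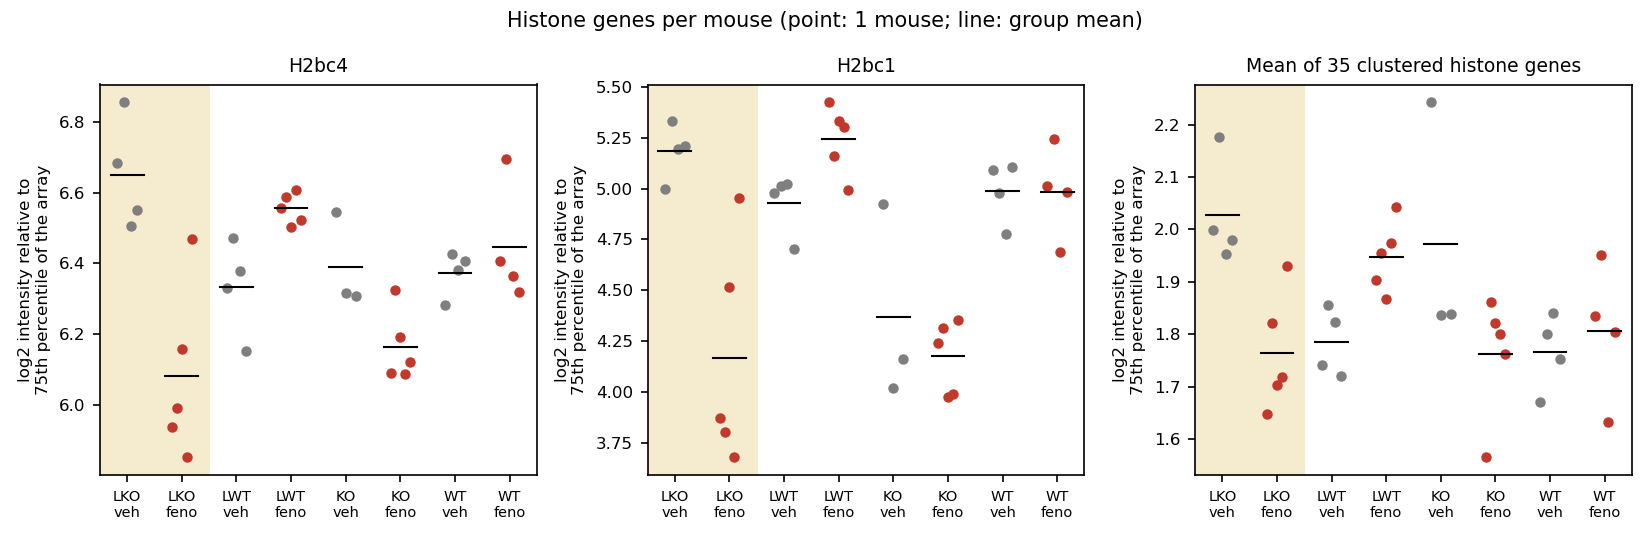
Log2 level (y axis, array's 75th percentile at 0) of H2bc4, H2bc1 and the mean of 35 clustered histone genes in each mouse of the 8 groups, with vehicle mice in grey, treated mice in red, a line at the group mean and the LKO groups shaded. Treated LKO mice lie below vehicle LKO mice in each panel, with 1 treated mouse close to them, while treated LWT mice have the higher mean of the LWT pair.

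Some of the largest lower changes were of genes whose level in vehicle LKO mice was far above that in LWT or WT mice. Wif1, a secreted inhibitor of Wnt ligands, read -0.89, -1.66, -1.74 and -0.91 in vehicle LKO mice and -3.15, -2.31, -4.10, -2.34 and -3.64 in treated ones. The change was -1.81 ± 0.37 (adjusted p = 0.169), and it was called without replicate 1 of vehicle KO (adjusted p = 0.0223), without the arrays of slide 1 (adjusted p = 0.0284) and with array weights (-1.71, adjusted p = 0.0300). Its size was -1.08 in the authors' value table and -0.87 with normexp and quantile normalization. Vehicle LWT mice read -4.66 to -3.28, vehicle KO mice -1.93 to 0.36 and treated KO mice -0.83 to -0.09. Wif1 was also lower with the drug in LWT, where the change of -2.57 was called (adjusted p = 8.97e-06). The difference between the lines was not called (adjusted p = 0.480).

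Moxd1, a gene related to dopamine beta-hydroxylase, read 5.80, 6.70, 5.05 and 5.17 with vehicle and 2.12, 0.69, 1.45, 2.30 and 4.90 with fenofibrate in LKO. The change was -3.39 ± 1.03 (adjusted p = 0.546), with treated mouse 5 near the vehicle mice, and -4.04 without that mouse. In LWT its level was uneven before treatment, with 3 vehicle mice between 3.47 and 3.59 and 1 at -3.37. Moxd1 was also lower with the drug in LWT, where the change of -5.45 was called (adjusted p = 0.000314). The difference between the lines was not called (adjusted p = 0.49). KO mice read 5.13 to 7.17 with vehicle and 5.36 to 6.91 with the drug.

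Gdpd3, a lysophospholipase D gene, read 0.91, 1.24, 0.95 and 1.34 in vehicle LKO mice and -3.67, -3.60, -4.77, -3.48 and 1.44 in treated ones. Treated mouse 5 was thus above every vehicle mouse, while the other 4 were more than 4 units below. The change was -3.93 ± 0.85 (adjusted p = 0.206), or -4.99 (adjusted p = 0.000353) without mouse 5, and 3 of 5 treated arrays were well above background. It was also called with array weights (-3.96, adjusted p = 0.0421), with the replicate block (-4.99, adjusted p = 3.14e-07) and without treated LWT mouse 5 (-3.93, adjusted p = 0.0462), and came to -2.29 with normexp. On the slide with mouse 5 the difference was 0.34, against -5.13 and -4.94 on the other slides. LWT mice went the other way, from between -4.55 and -3.19 with vehicle to between 0.08 and 2.11 in 4 treated mice and -3.44 in treated mouse 5. The difference between LWT and LKO was called (8.06 ± 1.20, adjusted p = 5.27e-05), and KO mice, between 3.43 and 4.68 in both groups, were the highest of the series.

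Slc41a2, a magnesium transporter gene, read 2.00, 3.14, 2.07 and 2.60 with vehicle and 0.98, 1.27, 1.01, 1.01 and 0.52 with fenofibrate, without overlap. Its change was -1.50 ± 0.46 (adjusted p = 0.574), beside -0.87 in LWT and -1.41 in KO, and neither of these was called. Trnp1, a regulator of nuclear size and cell division, differed by -0.70 ± 0.15 (adjusted p = 0.206), with 1 of 5 treated arrays well above background. It came to -0.24 in the authors' value table, -0.15 with normexp and -0.39 over the mean of its probes, and its second probe read -0.08 ± 0.37. The pseudogene Vmn2r-ps54 was not well above background on any treated LKO array, and the vehicle level was at least 1.93-fold higher. For Vmn2r-ps54 the change was -0.58 in the authors' value table and -0.43 with normexp, smaller than that bound.

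Acute phase genes, which hepatocytes make under interleukin signals, mostly read lower in treated LKO mice. Of 35 measured, 13 were lower at an unadjusted p under 0.05 (background 2.39%), 0 higher and 5 apart downward (background 1.11%). The median was -0.34, and 30 of 35 changes were negative. The count rested on single mice, since without vehicle mouse 2 it was 1 of 35 (2.86%, against 1.54% of all genes in that fit) with a median of -0.21, and without treated mouse 4, 1 or 3 it was 6, 7 or 8. Saa1, a serum amyloid A gene, read 7.26, 10.29, 7.92 and 8.18 with vehicle and 5.79, 8.14, 5.21, 5.60 and 5.47 with fenofibrate. Vehicle mouse 2 and treated mouse 2 were the highest of their groups, and the groups overlapped. The change was -2.37 ± 0.82 (adjusted p = 0.700), and within slides it was -1.76, -3.64 and -0.04.

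Saa2 followed it at -2.32 ± 0.84 and Saa4 at -0.52 ± 0.20. Fgl1, a fibrinogen-like hepatokine, read 7.12, 8.65, 7.63 and 7.35 with vehicle and 6.30, 7.39, 6.06, 6.29 and 6.47 with fenofibrate, a change of -1.19 ± 0.36 (adjusted p = 0.542). The median over the list was -0.37 in LWT, -0.40 in KO and -0.27 in WT. A difference between LWT and LKO was called for 1 of the 35 genes (background 6.69%). Kupffer cell markers in the same mice had a median change of -0.02 with 0 of 12 at an unadjusted p under 0.05. The 10 measured lymphocyte and neutrophil markers had a median of 0.06 with 1 higher at that p (background 3.37%). Their part in the acute phase values was not tested.

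**Figure D5:**
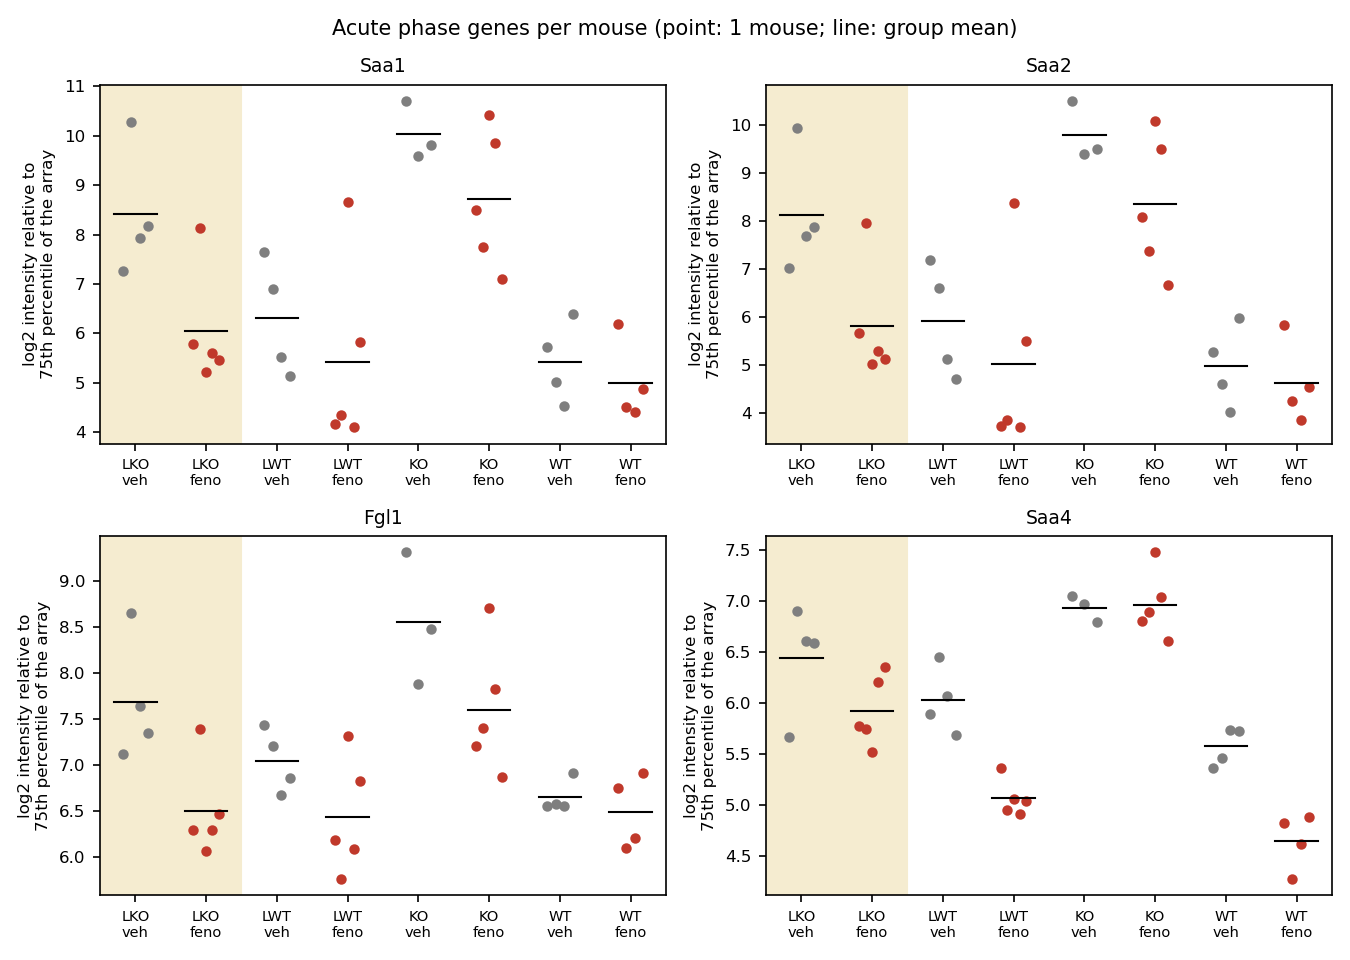
Log2 level (y axis, array's 75th percentile at 0) of Saa1, Saa2, Fgl1 and Saa4 in each mouse of the 8 groups, with vehicle mice in grey, treated mice in red, a line at the group mean and the LKO groups shaded. In LKO the vehicle mice of Saa1 lie between 7.26 and 10.29 and the treated mice between 5.21 and 8.14, and vehicle KO mice are the highest of the vehicle groups.

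Of 26 measured complement and coagulation genes, 2 were lower in LKO at an unadjusted p under 0.05 (background 2.39%) and 3 apart downward (background 1.11%), with a median of -0.10. The count at that p was 1 to 4 when 1 LKO mouse was left out, and 17 were called lower in LWT (median -0.36, background 7.81%). The difference between the lines was called for 5, with the signed change smaller in LWT (background 2.94%). C9, the pore-forming terminal component, read 3.74, 3.97, 3.48 and 3.70 with vehicle and 3.31, 3.08, 3.19, 3.10 and 3.29 with fenofibrate in LKO, a change of -0.53 ± 0.16 beside -1.11 in LWT. C4b differed by -0.36 ± 0.14.

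Several other genes differed in LKO without a call. The groups were apart for Cth and overlapped for Cyp8b1, Thrsp and Rrm2. Cth, the cystathionine gamma-lyase of cysteine synthesis, read 7.16, 7.35, 6.94 and 7.15 with vehicle and 6.22, 6.68, 6.44, 6.50 and 6.83 with fenofibrate, a change of -0.62 ± 0.18 (adjusted p = 0.487). Cyp8b1, the enzyme that directs bile acid synthesis to cholic acid, differed by -0.51 ± 0.18 in LKO and by 0.42 in LWT, and the difference was called (0.93 ± 0.25, adjusted p = 0.0232). Thrsp, a regulator of fatty acid synthesis, differed by 0.91 ± 0.33 in LKO and by -0.67 in LWT, also a called difference (adjusted p = 0.0372). Rrm2, a ribonucleotide reductase subunit, differed by 0.63 ± 0.18 in LKO and fell by 0.80 in LWT, where it was called lower (adjusted p = 0.00194), and the difference was called (adjusted p = 0.000397).

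Among the higher genes with the smallest p-values was Ppp1r15a, a phosphatase subunit of the stress response, which read 2.72, 2.62, 2.61 and 2.74 with vehicle and 3.15, 3.24, 2.98, 2.79 and 3.12 with fenofibrate. Its change was 0.38 ± 0.09 (adjusted p = 0.359), against -0.09 in LWT, and the difference between the lines was called (adjusted p = 0.0252). Lyrm4, a factor of iron-sulphur cluster assembly, differed by 0.31 ± 0.08 with groups apart, and Pfkfb3, a regulator of glycolysis, by 0.99 ± 0.33. Me1, malic enzyme, differed by 0.81 ± 0.30. Psat1, a serine synthesis enzyme, was not well above background on any vehicle LKO array and was at least 1.67-fold higher in treated mice. Its change was 0.30 in the authors' value table and 0.17 with normexp, smaller than that bound.

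Of the 12 endothelial markers 3 were higher at an unadjusted p under 0.05 (background 3.37%), Oit3 (0.39 ± 0.11), Ptprb (0.26 ± 0.08) and Egfl7 (0.19 ± 0.09), and the list median was 0.19. In LWT the median was 0.07, and the difference between the lines was called for 0 of 12 (background 6.69%). The median change in LKO was -0.13 over 25 cholesterol synthesis genes, 0.13 over 23 fatty acid synthesis genes, 0.03 over 17 bile acid genes, -0.09 over 20 apolipoprotein and lipoprotein genes and 0.05 over 18 clock genes. Among them 5 were higher and 2 lower at an unadjusted p under 0.05, all from the fatty acid synthesis and bile acid lists, beside 3.37% and 2.39% of all genes. Glucose handling genes (15 measured), AHR targets (4), ketogenesis genes (5) and 10 genes of PPARs, RXRs and related receptors and cofactors had 0 members at that level in LKO.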

How the data were processed

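RNA of 34 mouse livers had been labelled with Cy3 and hybridized to one-colour Agilent arrays. Per the file headers, the deposited scanner files hold spot intensities from Feature Extraction 10.10.1.1, an Agilent program, with probes placed on mm9. The submitters' processing notes also name limma. The authors' deposited log2 value table, whose columns share all quantiles and a median of 7.63, served as an alternative.

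Intensities were background-corrected processed signals. Outlier spots were set to missing, spots of a probe averaged, and the 75th percentile of each array subtracted from log2 values. Probes were kept where at least 1 group had them well above background throughout (31053 probes, 21517 named), and each gene took its brightest probe. Names came from a RefSeq table of GRCm38.p6, used for names alone; 22483 of 55681 probes stayed unnamed. Group means of all 8 groups were fitted without covariates (limma 3.58.1, R 4.3.3); p-values are two-sided. The script was tested on simulated data.

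The stated total of 36 samples is at odds with the stated group sizes, which sum to 34. Each array is 1 mouse, and the number of arrays limits the precision. Deviations from group means of LKO mice sharing a number were correlated (r = 0.30, 0.05, -0.20 and 0.09), so the numbers were not taken to pair the mice. Slides were read from the array barcodes.

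Named genes followed a rule of 13 anchor genes, the 8 largest separated changes and 6 smallest p-values in each direction, and up to 4 members of each of 23 pathway and 9 marker lists; omega-oxidation genes are given in full. The text names a part of them. Gstm3, Ces2a, Cyp2b13 and the histone family were chosen after their values were seen. The comparison, lists and rule were chosen with earlier results of these data known. A gene never well above background in 1 of the groups has a lower bound for its fold, set from the dimmest probe well above background on each such array, or from its own value if that was higher. Alternatives were 15 other settings and 34 fits that left out 1 array.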

Additional observations from a re-analysis of the deposited data

Results flagged for a closer look

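In 6 of the 70 groups examined, 1 mouse stood further from the others than Dixon's 95% limit, which chance alone passes in about 1 in 20 groups. Treated LKO mouse 5 had Gdpd3 at 1.44, against -4.77 to -3.48 in the others. Treated LKO mouse 3 had Cd36 at -0.45, against -0.06 to 0.06, and the noncoding gene Mirg at -3.999, against -3.02 to -2.81. Vehicle LKO mouse 2 had Cyp3a11 at 7.82, against 8.51 to 8.62, Pfkfb3 at 1.39, against 2.52 to 2.70, and Fgf21 at -3.14, against -6.75 to -6.28. For Fgf21, 1 vehicle and 2 treated LKO arrays had a signal well above background.

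The drug effect in LWT differed from that in LKO for 1077 genes. LWT minus LKO was 4.62 for Acot2, 3.93 for Cd36, 2.61 for Ehhadh, 3.38 for Pdk4, 1.43 for Plin2 and 2.21 for Vnn1, with adjusted p from 7.23e-12 to 0.0106. For Gdpd3 it was 8.06, for H1f2 1.90, for H2bc1 1.33 and for H2bc4 0.79, genes that were lower with the drug in LKO. For Ppp1r15a, higher with the drug in LKO, it was -0.48 (adjusted p = 0.0252).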

How the results depend on the processing

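The count of genes called in LKO, 0, became 2 in the authors' value table, 2 with quantile normalization, 2 with normexp, 1 with trend and robust variances, 14 with array weights, and, in a fit added after seeing the data, 4 without the arrays of slide 1. It ran from 0 to 3 when 1 array was left out. With the replicate block it was 2, H2bc1 and Gdpd3, and in that fit treated mouse 5, which has no partner, carries no weight. It was 0 in the other settings, including 31053 detected probes with or without a name. The LWT minus LKO count, 1077, became 2070 with array weights and ran from 803 to 1291 when 1 array was left out. The LKO minus KO count, 0, became 2 with the replicate block and 23 without slide 1, and ran from 0 to 14 when 1 array was left out. The cause was not tested.

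Changes near 0 reversed in sign under some settings, and none of them was called. Cd36 ran from -0.148 without vehicle LKO mouse 1 to 0.026 without vehicle LKO mouse 2 when 1 array was left out, was 0.023 without treated mouse 3, and 0.00021 with slide as a fixed block. Cyp4f16 ran from -0.085 to 0.062 (0.0015 and 0.023 without treated mouse 1 and 2), and was 0.048 with slide as a fixed block and 0.011 as a random block. Cyp4f17 ran from -0.054 to 0.063 (-0.028, -0.027 and -0.043 without treated mouse 2, treated mouse 5 and vehicle mouse 1), and was -0.034 in the authors' value table, -0.030 with normexp, -0.026 with quantile normalization and -0.027 with the replicate block.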

Other observations

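Among detected probes without a gene name, 9536 in all, 0 were called in LKO when tested with the named ones, and 530 had an unadjusted limma p under 0.05. Treated LKO mouse 5 was the treated mouse nearest to the vehicle mice for H2bc4, H2bc1, H1f2, the mean of the histone genes, Moxd1, Gdpd3 and Cth. The same held for Cyp4a14, Abcc3 and Retsat, which were higher with the drug. Of 28 second probes of named genes, 26 gave an LKO change of the same sign as the brightest probe, and those of Cyp4f18 and Mlxipl the opposite sign.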
